A study of Sus scrofa with 6 samples.

Results

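Toll-like receptors and their close partners were followed by 10 genes in the abdominal aorta of miniature swine. They were taken by gene symbol from a table of 22861 genes. The set holds the receptors TLR1, TLR2, TLR3, TLR4, TLR6, TLR7 and TLR8, the coreceptor CD14, the adaptor MYD88 and the inhibitory kinase IRAK3. All 10 symbols were present, each once. The lesion group was WMS FH, the Wisconsin Miniature Swine line with familial hypercholesterolaemia, and its aortic tissue carried atherosclerotic lesions. The lesion-free group was WMS normal, swine of the same breed. Each group had 11 animals, whose RNA was mixed to give 3 pools, and each pool gave 1 RNA sequencing library. Lesion state and swine line therefore cannot be told apart, and age, sex and diet per pool were not given in the sources used here. A pool mixes several animals, so the spread between pools need not equal the spread between animals.

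Toll-like receptors are pattern receptors of innate immunity. TLR2 pairs with TLR1 or TLR6 at the cell surface and reads bacterial lipopeptides, while TLR4 reads lipopolysaccharide with CD14 and the accessory protein LY96. TLR3, TLR7, TLR8 and TLR9 sit in endosomes and read nucleic acids. All of these receptors except TLR3 can signal through MYD88, and IRAK3 is a brake on the kinases downstream of it. In arteries the receptors are known from macrophages as well as from endothelial and smooth muscle cells.

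The lesion libraries held 4650176 to 11442433 counts and the lesion-free libraries 8492673 to 10826175. The smallest was lesion pool 1. Levels are given in CPM, counts per 1e+06 counts of the scaled library, and are compared between pools and not between genes, because no transcript length was used. A floor of 3 counts, the upper limit that a count of 0 allows, came to 0.268 to 0.576 CPM in the lesion pools and 0.305 to 0.359 CPM in the lesion-free pools, for counting error only. Smooth muscle markers, 4 of 6 matched, were abundant in every pool, with a summed level of 25886 to 36556 CPM in lesion pools and 55224 to 67206 CPM in lesion-free pools. Macrophage markers, 11 of 12 matched, summed to 1355 to 3070 CPM in lesion pools and 158 to 281 CPM in lesion-free pools. None was at 0 in every lesion-free pool, but CD163 was near 0 in both groups and was not tested. It had 6 counts in lesion pool 3, 7 in lesion-free pool 6 and 0 in every other pool. Endothelial markers, 5 of 6 matched, summed to 432 to 558 CPM in lesion pools and 307 to 360 CPM in lesion-free pools. Neutrophil markers, 5 of 7 matched, summed to 0 to 10.8 CPM in lesion pools, and all 5 were at 0 in every lesion-free pool. T cell markers, 6 of 6 matched, summed to 6.34 to 12.2 CPM in lesion pools and 0.479 to 5.72 CPM in lesion-free pools, without overlap. CD3G was at 0 in every lesion-free pool and also in lesion pool 1. Mean levels of CD5 and LCK were slightly lower in lesion pools. The 2 T cell markers that were tested overlapped between the groups and were uncalled. Dendritic cell markers, 4 of 7 matched, summed to 2.41 to 9.99 CPM in lesion pools and 1.73 to 5.03 CPM in lesion-free pools, with overlap. Their part in the differences below was not tested beyond the per-pool comparison given further on. In such bulk RNA, fewer cells of a type and less RNA per cell cannot be told apart.

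None of the 10 genes was called changed between lesion and lesion-free aorta, yet most of the receptors stood higher in every lesion pool. TLR2, TLR3 and TLR4 had fitted levels 2.48-fold to 5.71-fold higher in lesion pools, with no overlap between the groups. TLR7 did not overlap either, at 11.4-fold with all pools and 3.08-fold without lesion-free pool 4, where it was at 0. TLR6 and TLR8 were counted in lesion pools alone. CD14 and MYD88, at 1.51-fold and 1.34-fold, differed less. Only IRAK3 had a negative log2 fold. Of the 10 genes, 9 passed the filter on low counts and were tested with limma, and 0 were higher and 0 lower at an adjusted p under 0.05. Over all 11673 genes tested, 0.968% were called higher and 0.0771% lower. At an unadjusted limma p under 0.05, 5 of the 9 were higher and 0 lower, against 6.47% and 4.17% of all genes. The groups did not overlap, with lesion higher, in 6 of the 9, against 10.4% of all genes, and with lesion lower in 0 of the 9, against 9.01%. The filter asked for 1.00 CPM in 3 pools. TLR6 passed it only through its lesion pools, IRAK3 passed through its lesion-free pools, and TLR7 would not have passed on its lesion-free pools alone, so the filter bears on the place of these genes in the counts.

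TLR2, the shared partner of the lipopeptide receptors, stood at 24.8, 17.0 and 28.8 CPM in lesion pools 1, 2 and 3, against 11.2, 7.55 and 8.84 CPM in lesion-free pools 4, 5 and 6. The lowest lesion pool was above the highest lesion-free pool. Its mean was 23.6 ± 5.99 CPM in lesion and 9.20 ± 1.86 CPM in lesion-free pools (n = 3 each, SD). The log2 fold was 1.31 (SE 0.43, 95% interval 0.40 to 2.22, limma adjusted p = 0.23).

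TLR1, which binds triacylated lipopeptides with TLR2, stood at 13.5, 5.09 and 8.76 CPM in lesion pools and 1.83, 5.15 and 3.05 CPM in lesion-free pools. Lesion pool 2 lay just below lesion-free pool 5, so the groups overlapped. The log2 fold was again 1.31, with a wider SE of 0.75 (limma adjusted p = 0.565). TLR6, which binds diacylated lipopeptides with TLR2, had 73, 21 and 15 counts in lesion pools and 0 in each lesion-free pool. Lesion pool 1, the smallest library, held most of these counts, at 14.0 CPM against 1.87 and 1.37 CPM in lesion pools 2 and 3. Against a floor of 3 counts over the lesion-free group, TLR6 was at least 36.5-fold higher in the pooled lesion counts (limma adjusted p = 0.275). This bound was 14.9-fold without lesion pool 1, and 24.1-fold and 23.4-fold without lesion-free pool 4 or 6. It allows for counting error in the lesion-free group only, and not for the spread between pools. The fitted log2 fold of TLR6 depends on the added count of 0.5 and is not used as a size. TLR1, TLR6 and TLR10 are close relatives and neighbours in the Sscrofa11.1 gene table, and an estimated count can move between such genes. TLR10 had 41 counts in lesion pools together and 6 in lesion-free pools.

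TLR4, the lipopolysaccharide receptor, stood at 53.2, 17.9 and 16.0 CPM in lesion pools and 3.45, 7.31 and 2.54 CPM in lesion-free pools. Every lesion pool was above every lesion-free pool, and lesion pool 1 was far above the other 2. The mean was 29.0 ± 21.0 CPM in lesion and 4.43 ± 2.53 CPM in lesion-free pools (n = 3 each, SD). This gave a fitted 5.71-fold difference (log2 fold 2.51, SE 0.74, 95% interval 0.94 to 4.09), the smallest p among the tested genes of the set, without a call (limma adjusted p = 0.171). Without lesion pool 1 the log2 fold was 2.12 (limma adjusted p = 0.102). Over all fits that left out 1 pool, the limma adjusted p ran from 0.0873 to 0.381, and it was highest without a lesion-free pool. With a filter of 3 CPM the limma adjusted p was 0.218. On log2(CPM + 1) without precision weights the same gene was called (limma adjusted p = 0.0488). Of its accessory protein LY96, 31.6 ± 8.75 CPM were measured in lesion and 17.5 ± 10.2 CPM in lesion-free pools, with overlapping groups (limma adjusted p = 0.45).

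**Figure D1:**
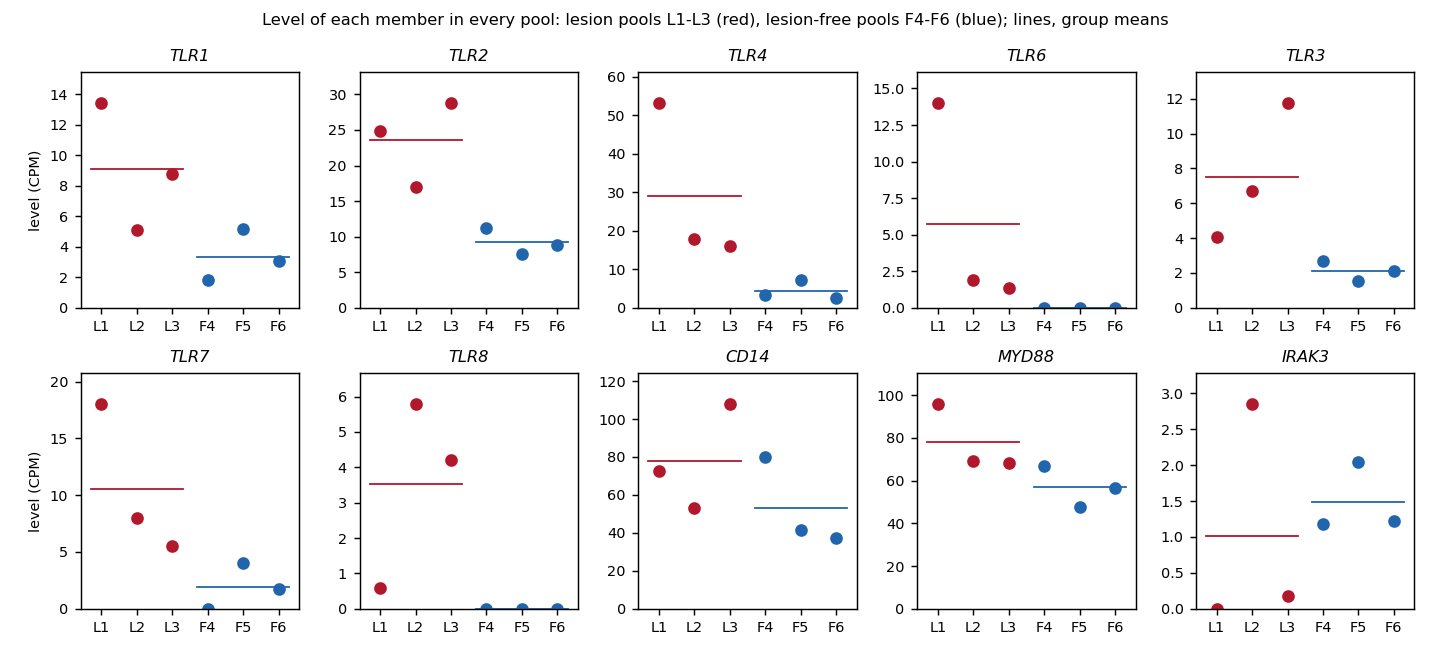
Level in CPM (vertical axes, linear from 0) of each of the 10 genes in lesion pools L1 to L3 (red, left) and lesion-free pools F4 to F6 (blue, right). Points are pools and lines are group means. TLR2, TLR4, TLR3, TLR7, TLR6, TLR8 and MYD88 show no overlap, while TLR1, CD14 and IRAK3 do.

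Among the endosomal receptors, TLR3, the sensor of double-stranded RNA, stood at 4.04, 6.69 and 11.8 CPM in lesion pools and 2.70, 1.56 and 2.13 CPM in lesion-free pools. The groups did not overlap, and here lesion pool 1 was the lowest lesion pool, not the highest. The log2 fold was 1.86 (SE 0.87, 95% interval 0.01 to 3.71, limma adjusted p = 0.467). TLR7, a sensor of single-stranded RNA, stood at 18.1, 8.03 and 5.56 CPM in lesion pools and 0, 4.07 and 1.73 CPM in lesion-free pools. Its groups did not overlap, and the 0 in lesion-free pool 4 set much of its fitted size. The log2 fold was 3.51 (SE 1.49, limma adjusted p = 0.411) with all pools and 1.62 without lesion-free pool 4 (limma adjusted p = 0.669).

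TLR8, a second single-stranded RNA sensor and the neighbour of TLR7, had 3, 65 and 46 counts in lesion pools and 0 in each lesion-free pool. The 3 counts of lesion pool 1 are at the floor, so the signal came from lesion pools 2 and 3, at 5.80 and 4.20 CPM. TLR8 did not pass the filter. Against the floor of 3 counts over the lesion-free group it was at least 38.1-fold higher in the pooled lesion counts, and at least 25.3-fold and 24.5-fold without lesion-free pool 4 or 6. These bounds too leave out the spread between pools. Without the filter TLR6 and TLR8 were both called higher (limma adjusted p = 0.0177 and 0.0138), each on 0 counts in the lesion-free group. TLR7 and TLR8 are X-linked, and the sex of the pooled animals is not given in the sources used here.

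Both remaining signalling receptors of the family with counts in most pools were also uncalled. TLR9, the sensor of unmethylated CpG DNA, stood at 20.6, 9.90 and 28.4 CPM in lesion pools and 3.02, 5.03 and 1.52 CPM in lesion-free pools. Its groups did not overlap (log2 fold 2.64, SE 0.83, limma adjusted p = 0.212). TLR5, the flagellin receptor, stood at 3.77 ± 1.59 CPM in lesion and 2.10 ± 0.497 CPM in lesion-free pools (n = 3 each, SD), with overlap (limma adjusted p = 0.822).

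CD14, the surface protein that hands lipopolysaccharide to TLR4, stood at 72.6, 53.4 and 108 CPM in lesion pools and 80.0, 41.5 and 37.1 CPM in lesion-free pools. Lesion-free pool 4 was above both lesion pools 1 and 2. The log2 fold was 0.59 (SE 0.36, 95% interval -0.17 to 1.35, limma adjusted p = 0.585), so at most about 2.56-fold higher levels lie within the interval. MYD88 stood at 96.1, 69.4 and 68.5 CPM in lesion pools and 67.1, 47.8 and 56.5 CPM in lesion-free pools. The groups did not overlap, but lesion pool 3 and lesion-free pool 4 were nearly level. Its log2 fold was 0.42 (SE 0.28, 95% interval -0.18 to 1.02, limma adjusted p = 0.629).

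IRAK3, a kinase relative without normal kinase activity that restrains IRAK1 and IRAK4, was close to the limit of detection. It had 0, 32 and 2 counts in lesion pools and 11, 17 and 12 counts in lesion-free pools. The lesion pools held both the highest and the lowest level, 2.86 and 0 CPM, and enclosed the lesion-free range of 1.19 to 2.04 CPM. No direction could be read (log2 fold -1.62, SE 1.73, limma adjusted p = 0.775).

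**Figure D2:**
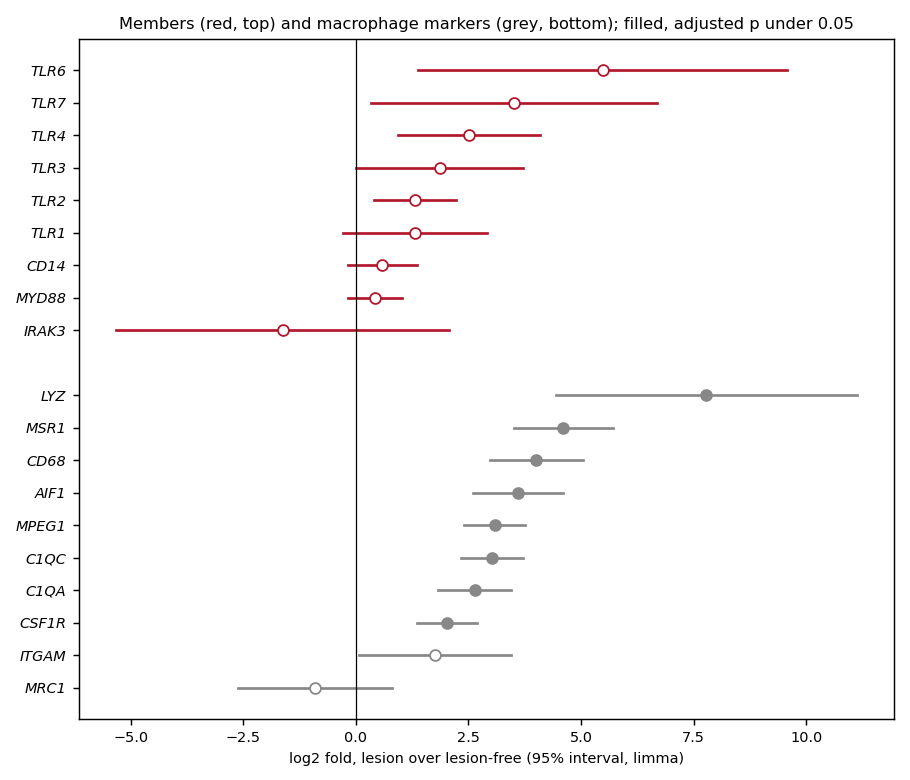
Log2 fold of lesion over lesion-free pools (horizontal axis) with its 95% interval from limma, for the 9 tested genes of the set (red, top) and the 10 tested macrophage markers (grey, bottom). Filled points have an adjusted p under 0.05. All 9 points of the set are open, and 8 of the 10 macrophage points are filled. The TLR6 and TLR7 points rest in part on pools at 0.

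The receptors were next set against macrophage markers measured in the same pools, which takes library scaling out of the comparison. The mean log2 CPM of 10 macrophage markers was 6.66, 6.36 and 7.07 in lesion pools and 3.82, 3.77 and 3.25 in lesion-free pools, an 8.48-fold difference. Of these markers 8 were called higher and 0 lower. MRC1, a mannose receptor, was uncalled with a log2 fold of -0.91 (limma adjusted p = 0.72). Relative to this mean, CD14 stood at -0.47, -0.62 and -0.31 log2 units in lesion pools and 2.51, 1.61 and 1.96 in lesion-free pools. MYD88 stood at -0.07, -0.24 and -0.97 in lesion pools and 2.25, 1.82 and 2.57 in lesion-free pools. Both were thus lower relative to the markers in every lesion pool, by mean differences of -2.49 and -2.64. The marker mean itself was 3.08 log2 units higher in lesion pools, so a gene with a steady level also comes out lower on this scale. The differences therefore show only that both genes, neither of them called, had smaller folds than the marker mean.

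TLR2 differed from the markers in the same direction by -1.75, at -2.02, -2.26 and -2.21 in lesion pools and -0.32, -0.84 and -0.10 in lesion-free pools, without overlap. TLR3 differed by -1.39, also without overlap. TLR1 differed by -1.64, and its groups overlapped. TLR4 kept closest to the markers, at -0.92, -2.19 and -3.07 in lesion pools and -2.01, -0.88 and -1.88 in lesion-free pools, a mean difference of -0.47 with overlap. TLR7 overlapped as well. On this scale IRAK3 was lower and TLR6 higher in every lesion pool, but these values rest on pools with 0 to 2 counts and are shown only in the plot. The exact two-sided permutation p was 0.1 for CD14, MYD88, TLR2 and TLR3, which is the smallest that 3 against 3 pools allow, and 0.4 for TLR4. A gene with a steady level would also reach 0.1 on this scale, so this p does not set these genes apart.

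**Figure D3:**
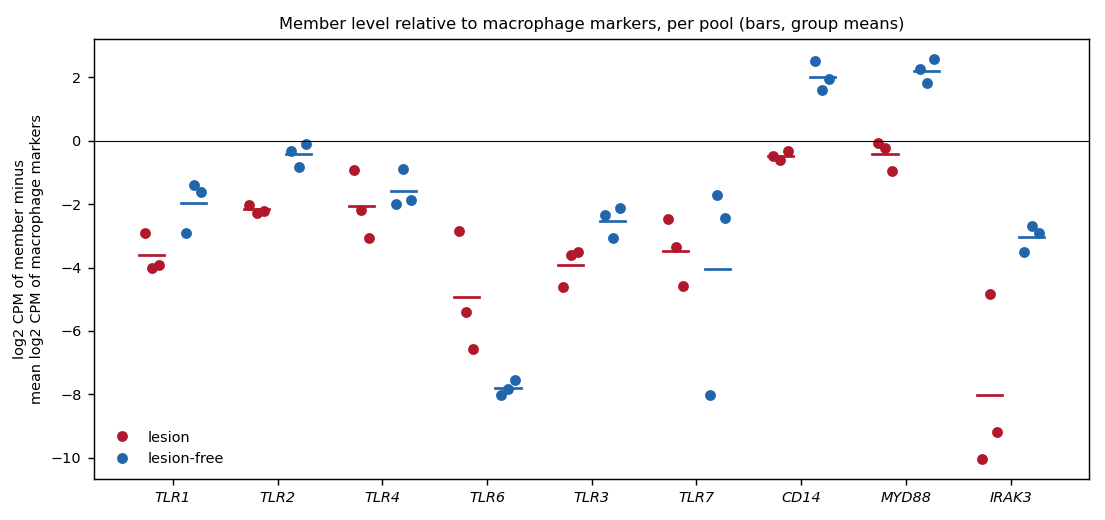
Log2 CPM of each tested gene minus the mean log2 CPM of 10 macrophage markers in the same pool (vertical axis), for lesion pools (red, left of each pair) and lesion-free pools (blue, right). Points are pools and bars are group means. CD14, MYD88, TLR2 and TLR3 lie lower in all lesion pools, and TLR4 overlaps. Points of TLR6, TLR7 and IRAK3 near -8 or below come from pools with 0 to 2 counts, and height is not comparable between genes.

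The set did not vary as a block across the lesion pools. TLR1, TLR4, TLR6, TLR7 and MYD88 were highest in lesion pool 1, TLR2, TLR3 and CD14 in lesion pool 3, and TLR8 and IRAK3 in lesion pool 2. Likeness was taken as the root mean square difference between log2 CPM profiles over the 6 pools, each centred on its own mean. Within the set the closest pairs were CD14 with MYD88 at 0.44, TLR2 with CD14 at 0.45 and TLR2 with TLR3 at 0.47 log2 units. The profiles were not scaled for the size of their changes, so genes that differ little lie close whatever their order of pools. CD14 was highest in lesion pool 3, for example, where MYD88 was at its lowest among lesion pools. TLR4 was closest to TLR1 at 0.76, and TLR6 with IRAK3 was the farthest pair at 4.53. Distances of TLR6 and IRAK3 depend on the added count of 0.5 in pools at 0, and are not used as a size.

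Over all genes with a symbol and a mean log2 CPM of at least 1, 7814 candidates for most members, the nearest profiles came from outside the set. Nearly all candidates lay outside it, so this says nothing about the set. With so many candidates and so few pools, some small distances are bound to occur. The neighbours are a description only. TLR2 was nearest to SCPEP1, a serine carboxypeptidase relative, at 0.10, and to CLEC11A, a secreted growth factor, at 0.16. For TLR4 the nearest was ABCA1, the cholesterol exporter, at 0.28, followed by MGAT4A, a glycosyltransferase, at 0.34. ABCA1 stood at 221, 104 and 82.1 CPM in lesion pools and 17.0, 26.8 and 16.9 CPM in lesion-free pools, with the same order of pools within the lesion group as TLR4 (limma adjusted p = 0.00425). TLR1 was nearest to IFNGR1, a chain of the interferon gamma receptor, at 0.21, and to ANGPT2, the vascular growth factor angiopoietin 2, at 0.26. TLR3 was nearest to UNC5B, a netrin receptor, at 0.26, and to FXYD5, a regulator of the sodium pump, at 0.31. CD14 was nearest to TMSB10, an actin-binding thymosin, at 0.09, and to MDK, the growth factor midkine, at 0.10. MYD88 was nearest to WDR19, a ciliary transport protein, at 0.07, and to EYA3, a phosphatase, at 0.08. Distances were larger for TLR7, with HK2, a hexokinase, at 0.53 and CLIC5 at 0.71. TLR6 came nearest to RNF128, a ubiquitin ligase, at 0.62 and CXCL14, a chemokine, at 0.87. IRAK3 came nearest to ELP4 at 0.73 and BTC, the growth factor betacellulin, at 0.74. The profiles of TLR6, TLR7 and IRAK3 rest in part on pools at 0, so their neighbours depend on the added count of 0.5.

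TLR4 had its counts on different isoforms in lesion and lesion-free pools. TLR4-001 had 222, 201 and 104 counts in lesion pools and 0 in each lesion-free pool. TLR4-005 had 0 in each lesion pool and 28, 44 and 25 counts in lesion-free pools. The share of TLR4-001 in all TLR4 counts was 80.1%, 100% and 59.4% in lesion pools and 0% in each lesion-free pool (exact two-sided permutation p = 0.1, the smallest possible). TLR4-003 took 71 further counts in lesion pool 3, and TLR4-004 took 55 in lesion pool 1 and 4 and 17 in lesion-free pools 4 and 5. Neither isoform was called on its own, with limma adjusted p = 0.275 for TLR4-001 and 0.291 for TLR4-005, while 0.418% of 12666 tested isoforms were higher and 0.0316% lower. Each of the pair passed the filter through 1 group. The test of unequal isoform change did not call TLR4 (limma diffSplice adjusted p = 0.199 over 601 genes), and it called 0% of those genes (unadjusted Simes p for TLR4 = 0.00133). Without the low-count filter the adjusted p of TLR4 was 0.00136 (limma diffSplice). Each isoform of the pair was at 0 in 1 whole group, so the fitted difference depends on the added count of 0.5 and is not used as a size.

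The deposited isoform counts of other genes in the set moved between isoforms within a group. All TLR3 counts lay on TLR3-201 in lesion pools 1 and 2, on TLR3-001 in lesion pool 3, on TLR3-002 in lesion-free pools 4 and 5, and again on TLR3-201 in lesion-free pool 6. Of the transcripts named for TLR2, a pair summed to the TLR2 gene count within 1 count in each pool. One of them held 315 of the TLR2 counts in lesion pool 3 and 87 in lesion-free pool 6, and the other held all or all but 1 in the remaining pools. CD14-001 made up 0%, 31.4% and 21.1% of CD14 in lesion pools and 2.83%, 0% and 3.84% in lesion-free pools, with overlap (limma diffSplice adjusted p = 0.92). Among 806 genes with several isoforms and at least 20 counts in every pool, 126 (15.6%) had 2 pools of 1 group with at least 90% of the counts on different isoforms. In 7 of the 806 (0.868%), TLR4 among them, 1 isoform led in all lesion pools and another in all lesion-free pools. Estimated counts of similar isoforms carry an uncertainty that the deposited numbers do not show.

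**Figure D4:**
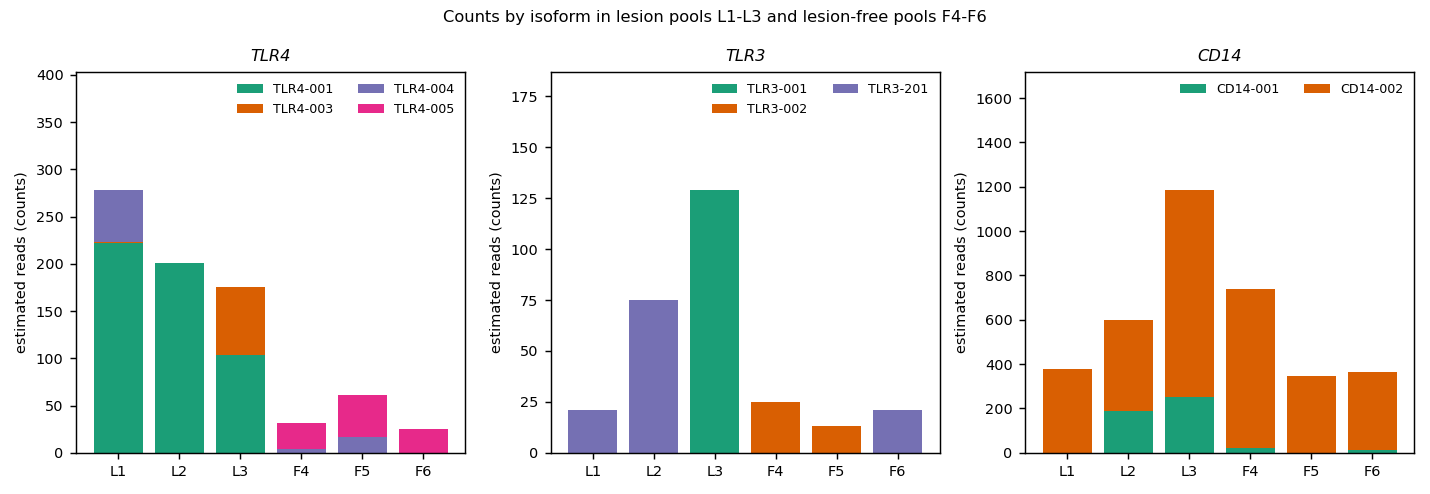
Estimated counts (vertical axes, linear from 0) of TLR4, TLR3 and CD14 by isoform in lesion pools L1 to L3 (left) and lesion-free pools F4 to F6 (right). Each bar is 1 pool and each colour 1 isoform, and bars are not scaled for library size. TLR4-001 is present in the 3 lesion pools and TLR4-005 in the 3 lesion-free pools, while TLR3 changes isoform within both groups.

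The rest of the pathway was followed through 64 further genes in 7 roles, of which 57 were matched and 48 tested. Of these, 3 rose and 0 fell, against 0.968% and 0.0771% of all tested genes, with a median log2 fold of 0.22 against 0.00 over all tested genes. The 3 were CD36, UNC93B1 and PIK3AP1, and they belong to recognition, trafficking and adaptor functions. UNC93B1 carries endosomal Toll-like receptors out of the endoplasmic reticulum. It stood at 47.7, 50.2 and 58.7 CPM in lesion pools and 13.5, 12.7 and 17.6 CPM in lesion-free pools (3.60-fold, log2 fold 1.85, SE 0.34, limma adjusted p = 0.0124). Without lesion-free pool 5 or 6 its limma adjusted p was 0.088 and 0.0571. PIK3AP1, also called BCAP, links these receptors to phosphoinositide 3-kinase. It stood at 94.4, 48.5 and 60.2 CPM in lesion pools and 9.60, 15.8 and 8.03 CPM in lesion-free pools (5.97-fold, log2 fold 2.58, SE 0.42, limma adjusted p = 0.00485). It was called whichever pool was left out, with limma adjusted p up to 0.0249.

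CD36, a scavenger receptor that works with TLR2 and TLR6, stood at 142, 45.5 and 40.7 CPM in lesion pools and 2.80, 8.03 and 6.50 CPM in lesion-free pools (11.4-fold, limma adjusted p = 0.0361). As for TLR4 and TLR6, lesion pool 1 was the highest. Its call was lost without any 1 lesion-free pool (limma adjusted p 0.109 to 0.129) and with a filter of 3 CPM (0.0542). The counts by list that follow stand against 0.968% of all tested genes called higher and 0.0771% called lower. Of 5 tested genes in the list of coreceptors and other receptors, 1 rose and 0 fell. CD180, a TLR4 relative of B cells and macrophages, had 209 counts in lesion pools together and 3 in lesion-free pools and was uncalled (limma adjusted p = 0.171). B cell markers, 4 of 5 matched, summed to 0 to 3.47 CPM in lesion pools and 0.102 to 7.55 CPM in lesion-free pools, and MS4A1 and PAX5 were at 0 in every pool. Of 3 folding and trafficking genes, 1 rose, and CNPY3, a chaperone of these receptors, had a log2 fold of 0.60 (limma adjusted p = 0.545). Of 4 adaptors 1 rose, and TICAM2, the bridge from TLR4 to TICAM1, had a log2 fold of 0.41 (limma adjusted p = 0.829).

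Downstream of the adaptors no gene was called in either direction, against 0.968% called higher and 0.0771% called lower over all tested genes. At shares this low, the absence of calls in short lists is not read as a result. Medians of the log2 fold were 0.16 over 14 kinases and ubiquitin ligases, 0.12 over 7 transcription factors, -0.08 over 9 brakes and 0.87 over 6 target genes. At an unadjusted limma p under 0.05, 1 kinase, 1 transcription factor and 2 target genes were higher and 1 brake was lower, against 6.47% and 4.17% of all genes. Nothing is read from counts this small. The kinase with the smallest p was IRAK2, at 19.3 ± 7.58 CPM in lesion and 4.99 ± 2.62 CPM in lesion-free pools (n = 3 each, SD, limma adjusted p = 0.239). IRF5, a transcription factor activated through MYD88, stood at 35.6, 19.4 and 26.4 CPM in lesion pools and 7.12, 0.479 and 1.63 CPM in lesion-free pools. Its groups did not overlap (log2 fold 3.71, SE 0.94, limma adjusted p = 0.0928). DUSP1, a phosphatase that limits MAP kinases, stood at 215 ± 55.1 CPM in lesion and 332 ± 65.0 CPM in lesion-free pools (limma adjusted p = 0.437). ICAM1, a leukocyte adhesion molecule and target of this pathway, stood at 60.5 ± 5.91 CPM in lesion and 25.4 ± 8.90 CPM in lesion-free pools, without overlap (limma adjusted p = 0.0968). Of 13 matched target genes, 7 were below the filter, namely IL1A, IL1B, IL6, IL10, TNF, CXCL8 and IFNB1. TNF had 21 counts in lesion pools together and 2 in lesion-free pools, IL1B had 3 and 3, and IFNB1 had 0 in every pool.

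**Figure D5:**
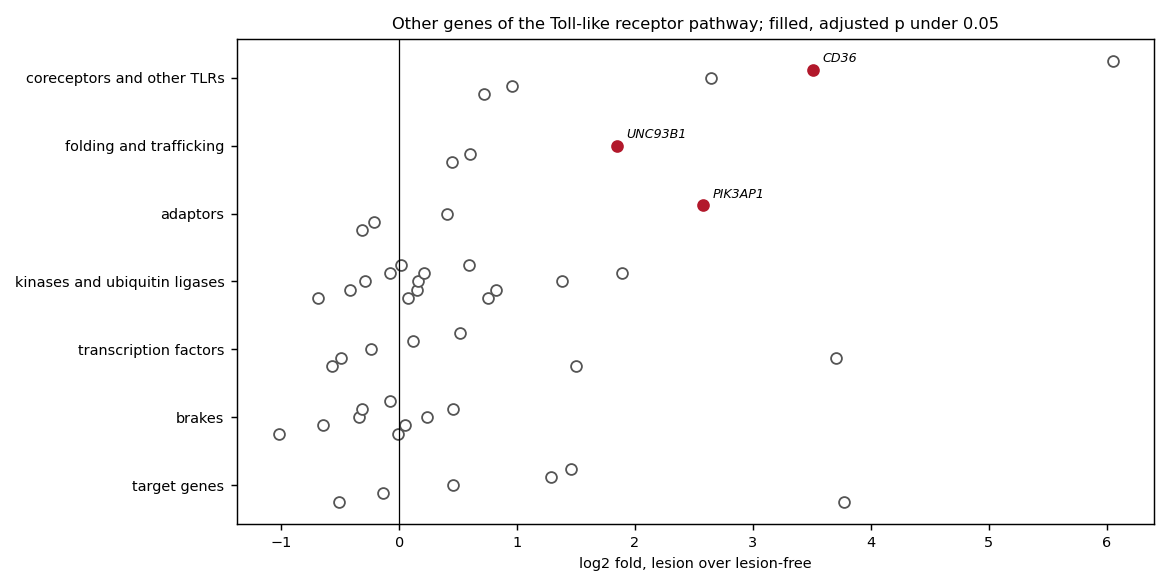
Log2 fold of lesion over lesion-free pools (horizontal axis) for the 48 tested genes of the pathway outside the set, in 7 rows by role. Each point is 1 gene, and its height within a row has no meaning. The 3 filled points have an adjusted p under 0.05, and no gene of the kinases, transcription factors, brakes or target genes is filled. Over all tested genes 0.968% were called higher and 0.0771% lower, so rows this short allow no contrast between roles.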

How the data were processed

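Total RNA of abdominal aorta was pooled and sequenced with a stranded total RNA kit, per the labels' protocols. The authors deposited a gene table and an isoform table of raw estimated counts, with a column for each pool. RSEM 1.3.0 is named in the submitters' processing notes. Aligner and genome build: not given in the sources used here. Commas inside the numbers were removed, after which every value was a whole number. Because of those commas the columns were not recorded as plain counts, and limma was then chosen in place of a count model. The values without commas would have allowed a count model, which was not run. The test was limma 3.58.1 in R 4.3.3, on log2 CPM with voom weights and robust moderation. Scaling used the trimmed mean of M values (30% of M and 5% of A trimmed), and voom added 0.5 counts. Genes needed 1.00 CPM, the CPM of 10 counts in the median library, in at least 3 pools (2 when a pool was left out) and 15 counts in all. P-values are two-sided, with the Benjamini-Hochberg adjustment across every tested gene and a threshold of 0.05. They measure the spread between pools. Pools within a group differed by a chi-square of 22.7 to 97.7 per degree of freedom, so no library was merely a second sequencing of another. This does not show whether the pools of a group held different animals.

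Isoforms were tied to a gene when their counts summed to the gene's within 1 count. The procedure was tested on simulated data. The genes, lists and rules were chosen with earlier results of these data known. The rule named all 10 genes, up to 3 called genes and the uncalled gene with the smallest p of each pathway list, and the 2 nearest profiles. LY96, TLR5, TLR9, TLR10, TNF, IL1B and the other target genes below the filter were named outside it, as were MRC1 and CD163. Of the 64 pathway genes, 47 were matched by symbol and 10 by identifier. Alternatives were 2 other scalings, 2 other filters, log2(CPM + 1), sample quality weights and leaving out each pool. The comparison with macrophage markers had been planned with p-values adjusted over the set. Its unadjusted exact p is given.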

Additional observations from a re-analysis of the deposited data

How the results depend on the processing

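Of the 10 genes, 0 were called higher and 0 lower in each fit that left out a pool and in the other scalings, the stricter filter and sample quality weights. On log2(CPM + 1) 1 was higher, which was TLR4, and without the low-count filter 2 were, TLR6 and TLR8. The other pathway genes called higher numbered 1 to 4 when a pool was left out, 5 on log2(CPM + 1) and 6 with quality weights, and 0 were lower throughout. Over all genes, 55 to 150 were higher and 4 to 36 lower when a pool was left out, 200 and 14 on log2(CPM + 1), 171 and 17 without the filter, and 213 and 40 with quality weights. The cause was not tested. The log2 difference of TLR4-001 minus TLR4-005 was 13.97 to 14.56 when a pool was left out and 14.15 without the filter, where its adjusted p was 0.00136. Each isoform was at 0 in 1 whole group, so these differences are set by the added 0.5 counts and show no stable size. Plain library totals moved the median log2 fold of all genes by 0.17. The number of genes lower against macrophage markers without overlap was 5, IRAK3 with its near-0 lesion pools among them, and 4 to 7 under alternatives chosen after seeing the data. In the other direction stood 1 gene, TLR6, set by its 0 counts. The share of all genes lower on this scale was not computed. The marker mean was higher in lesion pools, while the median log2 fold of all tested genes was -0.003. The count of lower genes is therefore not read as a trait of the set. Leaving out pools for the bounds of TLR6 and TLR8 was also chosen after seeing the data. IRAK3 and TLR6 could not be fitted under the stricter filter. No paired analysis was possible because the pools carry the numbers 1 to 6 and the groups share none. TLR6, TLR8 and IRAK3 had pools at 0 or a few counts, where these depths set a floor of 3 counts.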
